A study of Mus musculus with 32 samples.

Results

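Peaks of open chromatin centred in an intron and far from the listed gene start were described here in mouse orbitofrontal cortex (OFC) astrocytes. Many of the wider peaks reached past that intron, and some contained a gene start. The peaks were taken from 6 lists of an ATAC-seq study, an assay that marks accessible DNA by transposase cutting. They were selected on measured values: a peak on chromosomes 1 to 19 whose annotated centre lay in an intron, more than 10 kb from the listed transcription start site (TSS), and that spanned less than 500 kb. By this rule, 1950 of 16174 peaks were distant intronic peaks. The closest peak inside the distance limit lay 10.037 kb from a TSS, in the GFP CSDS list near Supt4b, and the closest outside lay 9.982 kb away, in the Zbt-KD CSDS list near Astn2. The widest peak inside the width limit spanned 499.148 kb near Slc22a28, and the narrowest outside spanned 500.275 kb near Col12a1, both in the ZBT-OE SSDS list.

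All mice were male C57BL/6J, purchased at 6 to 12 weeks of age, and received an AAV6 virus bilaterally into the OFC whose cargo was driven by the astrocytic GFAP promoter. In the knockdown experiment, the virus carried either a microRNA against the transcription factor Zbtb7a (Zbt-KD) or a scrambled control microRNA with GFP (GFP), and mice were left as controls or exposed to 10 days of chronic social defeat stress (CSDS) by CD-1 aggressors. The resulting 4 groups (GFP control and GFP CSDS; Zbt-KD control with Zbt-KD CSDS) held 5 samples each. In the overexpression experiment, the virus carried ZBTB7A (ZBT-OE) or GFP alone, with 6 samples per group. Both of these groups, ZBT-OE SSDS and GFP SSDS, had subthreshold social defeat stress (SSDS) for 1 day, which the sample labels do not give and which was taken from the study's design. Every sample pooled astrocytes of 3 mice, isolated with magnetic beads against the astrocyte surface antigen ACSA-2. The 32 samples were deposited as 1 peak list per group, so no list has a replicate, the depth behind a peak is unknown, and no difference between groups could be tested. Ranges in parentheses after a share are 95% Wilson intervals, computed over peaks, which reflect counting error alone. They treat peaks as independent although many lie in the same gene, so they may be too narrow and are no test between lists. The lists hold no expression, so the knockdown and the overexpression could not be checked in them.

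Introns hold many of the enhancers, silencers and insulators that act on their own gene or on genes further away, and in brain the longest introns belong to genes of synapses, adhesion and ion channels. Introns also hold most of the transposable elements that lie within genes. Among these, LINE-1 elements of the young mouse families A, T and F carry a CpG-rich promoter built from units repeated in tandem, which cells usually keep silent by DNA methylation. ZBTB7A is a zinc finger protein that binds GC-rich DNA and can repress or open chromatin depending on the setting.

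Among narrow GFP CSDS peaks, those with the highest GC content carried this repeat structure. The central 240 bases of 3 of them are shown beside 3 other intronic peaks. All are written 5′ to 3′ on the plus strand of GRCm38, which has the coordinates of mm10, with CpG dinucleotides in capitals. The first is the centre of a GFP CSDS peak in intron 3 of 9 of Npsr1, the neuropeptide S receptor, at chr9:24147942-24148181, in an L1Md_T element. The second comes from intron 1 of 16 of Pde1c, a calmodulin-dependent phosphodiesterase, at chr6:56247513-56247752, in an L1Md_F element. The third comes from intron 16 of 29 of Abcb1a, the efflux transporter P-glycoprotein, at chr5:8711412-8711651, in another L1Md_T element.
Npsr1: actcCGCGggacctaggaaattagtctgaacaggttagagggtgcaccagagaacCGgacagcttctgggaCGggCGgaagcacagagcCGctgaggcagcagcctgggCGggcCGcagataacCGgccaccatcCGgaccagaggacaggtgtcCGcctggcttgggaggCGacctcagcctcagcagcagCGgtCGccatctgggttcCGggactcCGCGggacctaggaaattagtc
Pde1c: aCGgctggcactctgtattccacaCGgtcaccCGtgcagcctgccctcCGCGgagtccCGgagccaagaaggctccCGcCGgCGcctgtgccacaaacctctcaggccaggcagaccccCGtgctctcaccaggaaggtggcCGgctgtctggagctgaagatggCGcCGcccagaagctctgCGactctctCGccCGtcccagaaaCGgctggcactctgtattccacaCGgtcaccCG
Abcb1a: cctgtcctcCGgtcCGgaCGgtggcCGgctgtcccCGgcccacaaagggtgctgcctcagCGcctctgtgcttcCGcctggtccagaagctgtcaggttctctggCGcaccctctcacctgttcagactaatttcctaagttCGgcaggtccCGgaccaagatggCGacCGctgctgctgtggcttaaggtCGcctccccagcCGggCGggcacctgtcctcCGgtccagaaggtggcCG

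The dissimilar members follow for contrast, the centres of a GFP CSDS peak in intron 13 of 33 of Adcy10, the bicarbonate-sensitive adenylyl cyclase, at chr1:165526252-165526491, of a ZBT-OE SSDS peak in intron 1 of 10 of Fkbp5, a co-chaperone of the glucocorticoid receptor, at chr17:28468308-28468547, and of a GFP control peak in intron 6 of 20 of Sntg1, the scaffold protein gamma-1-syntrophin, at chr1:8705195-8705434.
Adcy10: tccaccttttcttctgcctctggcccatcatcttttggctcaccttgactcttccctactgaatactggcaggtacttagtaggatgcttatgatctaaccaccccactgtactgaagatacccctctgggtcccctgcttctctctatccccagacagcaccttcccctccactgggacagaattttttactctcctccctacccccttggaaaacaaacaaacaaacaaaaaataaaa
Fkbp5: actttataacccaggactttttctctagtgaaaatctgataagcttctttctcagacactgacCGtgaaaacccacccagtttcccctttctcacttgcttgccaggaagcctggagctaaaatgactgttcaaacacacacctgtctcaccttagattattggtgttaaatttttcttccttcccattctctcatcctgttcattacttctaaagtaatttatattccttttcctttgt
Sntg1: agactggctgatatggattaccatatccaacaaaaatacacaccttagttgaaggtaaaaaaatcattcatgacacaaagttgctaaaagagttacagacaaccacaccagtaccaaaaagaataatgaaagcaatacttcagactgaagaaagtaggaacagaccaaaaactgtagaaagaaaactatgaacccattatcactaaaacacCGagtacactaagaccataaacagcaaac

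The 3 LINE-1 windows held 17, 19 and 17 CpG dinucleotides in the order printed, against 0 in Adcy10, 1 in Fkbp5 and 1 in Sntg1. The opening letters of the Npsr1 and Pde1c windows return near their ends. Over the whole peak, the most frequent spacing between copies of the same 21 bases was 214 bp in Npsr1, 206 bp in Pde1c and 212 bp in Abcb1a. Of all stretches of 21 bases in the peak, 96.6% occurred more than once in Npsr1, 97.3% in Pde1c and 78.3% in Abcb1a. The same share had a median of 0 over the 284 other GFP CSDS peaks narrower than 5 kb. The highest value among these was 68.2%, above the 63.4% of a GC-rich peak in Marchf1, so the ranges overlapped.

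Such peaks were few. Of 290 GFP CSDS distant intronic peaks narrower than 5 kb, 6 had a GC content above 55%, limits chosen after the values were seen, and all 6 were centred in L1Md elements. Among their hosting genes were Npsr1, Pde1c, Filip1, Abcb1a and Marchf1. Their fold enrichment, the peak caller's ratio of signal to background, which can be compared only within a list, had a median of 2.71, against a median of 1.61 for the 284 others. In GFP control, 9 of 507 narrow peaks passed the same GC limit, with a median fold enrichment of 1.66 against 1.65 for the others, and 5 of the 9 were centred in L1Md elements. Of the 6 GFP CSDS peaks, 5 overlapped a GFP control peak, 2 a Zbt-KD control peak, 0 a Zbt-KD CSDS peak, 3 a GFP SSDS peak and 2 a ZBT-OE SSDS peak. Of the 284 other GFP CSDS peaks, 29.2% overlapped a GFP control peak, 39.4% a Zbt-KD control peak and 39.1% a Zbt-KD CSDS peak. The same share was 70.1% for GFP SSDS and 64.8% for ZBT-OE SSDS. The narrowest distant intronic peak spanned 6613 bp in Zbt-KD CSDS, 6597 bp in Zbt-KD control, 8495 bp in GFP SSDS and 20277 bp in ZBT-OE SSDS. These lists thus hold none under 5 kb, and why the overlaps differ was not tested.

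The number of distant intronic peaks differed between lists much more than their share. GFP control held 672 and GFP CSDS held 505. Zbt-KD control held 187, Zbt-KD CSDS 172, GFP SSDS 216 and ZBT-OE SSDS 198. They made up 10.9% of the GFP control list (10.1 to 11.7), 12.4% of GFP CSDS (11.4 to 13.5), 12% of Zbt-KD control (10.5 to 13.7) and 12.3% of Zbt-KD CSDS (10.6 to 14.1). In the overexpression experiment, they made up 14.0% of GFP SSDS (12.3 to 15.8) and 14.0% of ZBT-OE SSDS (12.3 to 15.9). The 4 intervals of the knockdown experiment overlapped, and GFP control lay below both lists of the overexpression experiment without overlap of the intervals.

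**Figure D1:**
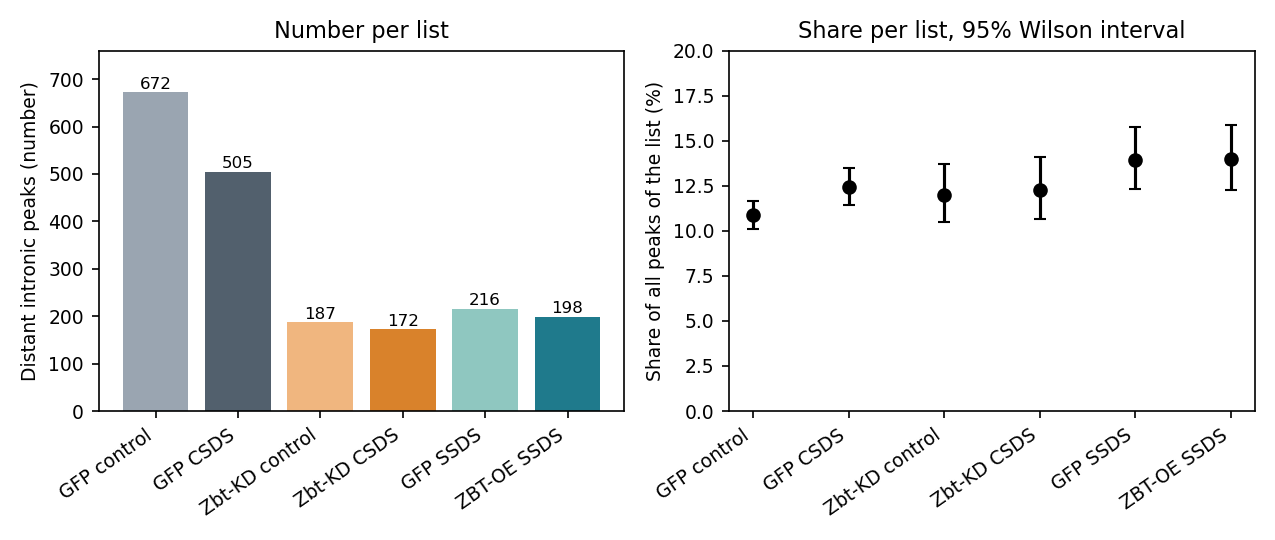
Number of distant intronic peaks per list (left, bars) and their share of all peaks of the list in percent (right, points with 95% Wilson intervals over peaks). Numbers run from 172 to 672 while shares stay between 10.9% and 14.0%.

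The lists were made of pieces of different size, and the published peak calling settings give no reason for this, so widths, numbers and overlaps describe the lists as deposited. The median width of a distant intronic peak was 1909.5 bp in GFP control and 3959 bp in GFP CSDS, against 36609 bp in Zbt-KD control, 33195 bp in Zbt-KD CSDS, 59050 bp in GFP SSDS and 70381.5 bp in ZBT-OE SSDS. The narrowest was 689 bp in GFP control and 20277 bp in ZBT-OE SSDS. Despite 672 peaks against 187, the GFP control peaks covered 14.5 Mb and the Zbt-KD control peaks 18.7 Mb. GFP CSDS covered 18.9 Mb, Zbt-KD CSDS 18.1 Mb, GFP SSDS 28.4 Mb and ZBT-OE SSDS 27.1 Mb. Brought to one scale, by joining peaks of a list across gaps under 20304 bp, keeping regions at least as wide and placing each centre on the RefSeq annotation, the lists held 92, 106, 93, 100, 140 and 199 distant intronic regions in the same order. The number ratio of ZBT-OE SSDS to GFP SSDS was then 1.42 in place of 0.917, that of GFP CSDS to GFP control 1.15 in place of 0.751, that of Zbt-KD control to GFP control 1.01 in place of 0.278 and that of Zbt-KD CSDS to Zbt-KD control 1.08 in place of 0.920. Zbt-KD CSDS against GFP CSDS gave 0.943 in place of 0.341. The direction of 4 of 5 number ratios thus differed at one scale, and the counting intervals of 3 of these 4 included 1 there (0.871 to 1.52, 0.758 to 1.35 and 0.811 to 1.43), with ZBT-OE SSDS to GFP SSDS at 1.15 to 1.76. In the lists as deposited, the intervals of Zbt-KD CSDS to Zbt-KD control (0.748 to 1.13) and ZBT-OE SSDS to GFP SSDS (0.756 to 1.11) already included 1. The one-scale setting joins, filters and re-annotates in 1 step, and which of these moved the ratios was not tested.

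**Figure D2:**
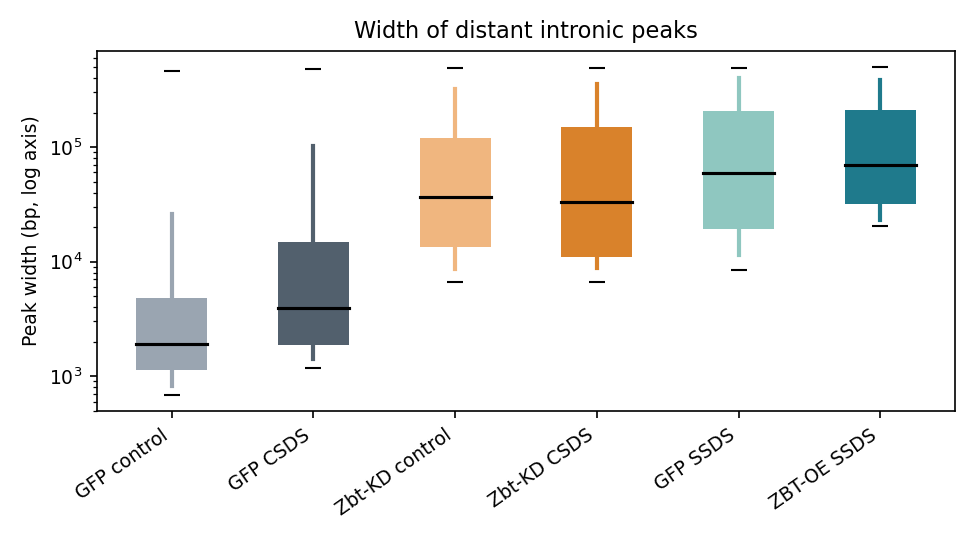
Width of distant intronic peaks per list in bp on a log axis: black lines are medians, boxes the middle 50% of peaks, vertical lines the middle 80%, and dashes the narrowest and widest peak. Medians rise from 1909.5 bp in GFP control to 70381.5 bp in ZBT-OE SSDS, with all widths under the 500 kb limit.

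Introns more than 10 kb from a TSS were covered less than intergenic DNA beyond the same limit, with distances past 10 kb not matched. Of the autosomal bases more than 10 kb from every RefSeq TSS and outside exons, 37.1% were intronic. Among peaks with distant centres, the intronic share was 14.1% in GFP control, 17.1% in GFP CSDS, 17.0% in Zbt-KD control, 17.4% in Zbt-KD CSDS, 21.8% in GFP SSDS and 25.0% in ZBT-OE SSDS. Peaks of any kind covered 2.56% of the distant intronic bases in GFP control and up to 4.91% in ZBT-OE SSDS, against 8.47% and 12.2% of the distant intergenic bases. In all 6 lists the distant intergenic share was 2.49 to 3.30 times the distant intronic share.

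Within genes, the peaks had no strong preference for one intron. Intron 1 held 15.3% of the peaks in GFP control (12.8 to 18.2), 19.8% in GFP CSDS, 19.3% in Zbt-KD control, 19.2% in Zbt-KD CSDS, 19.4% in GFP SSDS and 25.3% in ZBT-OE SSDS (19.7 to 31.7), and 20.3% of the annotated distant intronic bases. Introns from the sixth on held 30.1% to 37.9% of the peaks and 38.4% of the bases. The median rank was 3 in GFP CSDS and 4 in the other lists. The gene hosting the centre was also the nearest gene of the list for 66.5% of the peaks in GFP CSDS to 75.5% in GFP control. For the remaining peaks, the listed nearest gene was another gene, as for the Abcb1a peak, which is listed under Abcb1b.

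Many of the wider peaks reached past their intron. In GFP control, the hosting intron was wider than the peak in 85.7% of cases, and this share was 76.4% in GFP CSDS, 49.2% in Zbt-KD control, 49.4% in Zbt-KD CSDS, 38.9% in GFP SSDS and 26.4% in ZBT-OE SSDS. A RefSeq TSS lay inside the peak in 5.21% of the GFP control peaks (3.77 to 7.16), 9.90% in GFP CSDS, 28.9% in Zbt-KD control, 29.1% in Zbt-KD CSDS, 39.4% in GFP SSDS and 57.6% in ZBT-OE SSDS (50.6 to 64.3). At least 1 exonic base was included in 24.0% of the peaks in GFP control and 85.4% in ZBT-OE SSDS. The label intronic therefore describes the centre of a peak, and in ZBT-OE SSDS most of these peaks also contained a gene start.

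In base composition, the peaks differed from intergenic peaks chosen with the same distance, width and chromosome limits in the same direction in every list, without passing the threshold after adjustment. The median GC content was 42.1% in GFP control, 41.7% in GFP CSDS, 40.2% in Zbt-KD control, 40% in Zbt-KD CSDS, 40.8% in GFP SSDS and 42.0% in ZBT-OE SSDS. It was above that of the intergenic peaks in 6 of 6 lists, by 0.650 to 2.61 percentage points with a mean of 1.17 ± 0.761 (SD, n = 6 lists). LINE elements held the centre of 13.1% (ZBT-OE SSDS) to 27.9% (Zbt-KD CSDS) of the intronic peaks, lower than the intergenic peaks in 6 of 6 lists, by 10.6 ± 4.87 percentage points on average (SD, n = 6 lists). Median fold enrichment differed by -0.00219 ± 0.0307 and width by 0.03 ± 0.28 on the log2 scale, with lists on both sides of 0. In an exact two-sided sign-flip permutation test over the 6 lists, the GC and LINE differences each had p = 0.03125, the smallest p this design allows. After Benjamini-Hochberg adjustment over the 4 measures, both had p = 0.0625 in this exact test and did not pass 0.05, and fold enrichment had p = 0.938. With 6 lists, fewer than 3 measures at the smallest p cannot pass after this adjustment, and width, which the selection itself limits, is given as a description. The lists share many loci, so they are not 6 independent measurements. Distances past 10 kb were not matched, and some of the intronic peaks contained a TSS. The GC content and LINE share of all distant intronic and intergenic DNA were not set beside these values. Whether the peaks differ from the DNA around them was thus not tested.

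Of the 464 LINE centres among all 1950 peaks, 49 were L1Md_F2, 43 L1_Mus3, 36 L1Md_T and 21 L1Md_A. SINE elements, which are short, GC-rich and frequent near genes, held 12.1% of the centres in ZBT-OE SSDS (8.28 to 17.4) and 4.07% to 5.94% in the other lists. The LINE share of ZBT-OE SSDS, 13.1% (9.12 to 18.5), was below the 22.2% of GFP SSDS (17.2 to 28.2), with intervals that overlap.

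The peaks fell in a limited set of genes. A hosting gene could be assigned for 1925 peaks through the listed transcript, and 428 genes hosted a peak in at least 1 list. GFP control had 181 hosting genes, GFP CSDS 194, Zbt-KD control 124, Zbt-KD CSDS 117, GFP SSDS 171 and ZBT-OE SSDS 184. Of the 12492 RefSeq genes with a distant intronic base, 1.44% hosted a peak in GFP control, 1.54% in GFP CSDS, 0.985% in Zbt-KD control, 0.929% in Zbt-KD CSDS, 1.37% in GFP SSDS and 1.47% in ZBT-OE SSDS. Hosting genes were long: their median length was 82.8 kb against 37.2 kb for all 12492 genes. Longer genes offer more bases that can hold such a peak, and a share per base of each gene was not computed. Genes under 50 kb hosted a peak in any list in 1.93% of cases, genes of 500 to 1000 kb in 26.1% and genes of at least 1000 kb in 31.9%. Of the 428 genes, 197 hosted a peak in 1 list and 40 in all 6 lists. Peaks per hosting gene fell from 3.67 in GFP control to 1.07 in ZBT-OE SSDS, while the peaks widened.

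The gene with the most distant intronic peaks was Ralyl, which encodes an RNA-binding protein, with 53 over the lists. It held 28 peaks in GFP control, 19 in GFP CSDS, 2 in each Zbt-KD list and 1 in each list of the overexpression experiment. The part of its gene body covered by peaks was 32.1% in GFP control and 24.9% in GFP CSDS. It was higher, at 39.8% to 50.2%, in the lists with 1 or 2 peaks. A count of peaks in a gene thus did not follow the covered length, and both are given for the genes below.

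Galnt13, an enzyme that starts mucin-type glycosylation, held 46 peaks, of which 21 were in GFP CSDS and 9 in Zbt-KD control, and its body was covered between 41.2% (Zbt-KD CSDS) and 84.9% (GFP SSDS). Agbl4, a carboxypeptidase that trims glutamate from tubulin, held 27 peaks in GFP control and 0 to 3 elsewhere, with a coverage of 25.9% to 42.8% in all 6 lists. Unc5d, a netrin receptor, held 15 peaks in GFP control and 8 in Zbt-KD control, with a coverage of 40% to 63.3%. Dnah7c, an axonemal dynein heavy chain, was covered by 50.8% in GFP CSDS to 83.1% in Zbt-KD CSDS. These 4 genes were covered in part in every list, and the differences between lists lay in how far and in how many pieces.

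Other long genes were covered in some lists and little or not at all in others. Egfem1 held 24 peaks in GFP CSDS, which covered 16% of its body, and 0 peaks in GFP control, Zbt-KD control, Zbt-KD CSDS and ZBT-OE SSDS, where coverage was 0.200%, 0, 0 and 2.03%. The highest fold enrichment of the 24 was 1.73, and the median over all distant intronic peaks of the list was 1.66. Sugct, a mitochondrial coenzyme A transferase, held 14 peaks in GFP control and 15 in GFP CSDS, was not covered in Zbt-KD control, and was covered by 23.6% in Zbt-KD CSDS. The long non-coding gene Gm29536 was covered by 13.5% in GFP CSDS and by 40.9% to 55.5% in the other 5 lists.

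Sntg1 was covered in 3 lists and not in the other 3. A single peak from chr1:8688450-9170160 covered it in Zbt-KD control with a fold enrichment of 2.73, and one from chr1:8688353-9175776 covered it in GFP SSDS with 2.94. These covered 51.2% and 51.8% of the gene. In GFP control, 20 narrower peaks covered 9.72%. No base of the gene was covered in GFP CSDS, Zbt-KD CSDS or ZBT-OE SSDS. Both unstressed lists of the knockdown experiment were thus covered and both CSDS lists were not, and each state rests on 1 list without a replicate. Other genes went the opposite way: Atp13a4 and Tacr3 were covered by 0 in both unstressed lists and by 50.2% to 57.5% in both CSDS lists. Of 428 hosting genes, 38 were covered by at least 10% in GFP CSDS and by 0 in GFP control, and 3 the reverse. Within knockdown, these counts were 32 for CSDS only and 31 for control only.

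**Figure D3:**
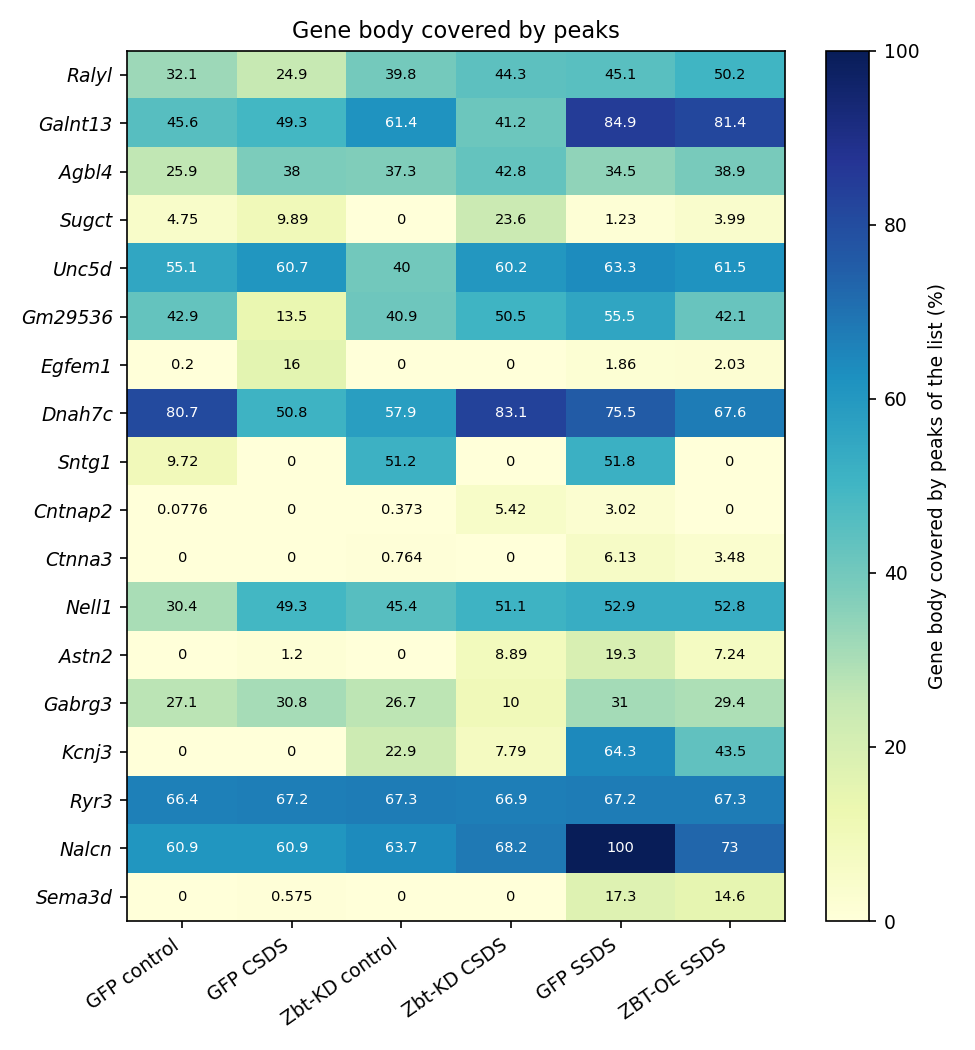
Percent of each gene body covered by peaks of any width in each list, for the 8 genes with the most distant intronic peaks, Sntg1, and genes of the chosen lists that hosted a peak in 3 or more lists. Sntg1 is covered in 3 lists and at 0 in the other 3, whereas Ryr3 stays between 66.4% and 67.3%.

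Some loci recurred in all 6 lists. Peaks joined where they overlapped formed 689 loci, of which 44 held a distant intronic peak in every list and 452 in 1 list. The 44 were put in order by their lowest fold enrichment over lists, an order used for naming alone since the ratio is not comparable between lists. First was chr10:27360020-27825337, centred in intron 1 of Lama2, the laminin alpha-2 chain of basement membranes. Its fold enrichment was 4.84 in GFP control, 4.79 in GFP CSDS, 4.87 in Zbt-KD control, 4.87 in Zbt-KD CSDS, 4.30 in GFP SSDS and 4.35 in ZBT-OE SSDS. In each list it was 1 peak of about 465 kb whose start varied by 160 bp and whose end by 161 bp. It ran past the TSS of Lama2.

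Prex2, an exchange factor for Rac, held a peak of about 370 kb centred in intron 4 in every list, which also ran past the Prex2 TSS. The start and end of this peak varied by 769 and 613 bp. Its fold enrichment was 5.17, 4.75, 4.86 and 4.76 in the 4 lists of the knockdown experiment, and 3.65 in GFP SSDS and 3.41 in ZBT-OE SSDS. The receptor tyrosine kinase Ros1 followed with a lowest value of 3.33 and the calcium-dependent kinase Camk4 with 3.28. The locus in Snhg14, the long transcript that carries the imprinted small nucleolar RNAs and runs antisense to Ube3a, had a lowest value of 3.20. Vmn2r18, a vomeronasal receptor, had 3.04, the secreted protein Nell1 2.95 and Tusc3, a subunit of the oligosaccharyl transferase, 2.94. Nell1 was cut into 10 peaks in GFP control, 6 in GFP CSDS and 4 in Zbt-KD control, and was 1 peak in the other lists. At Camk4 and Snhg14, 72.4% and 70.2% of the bases were repeat-masked in the reference, against 40.4% at Lama2 and 37.4% at Prex2.

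Genes of neuronal function were counted from lists of known genes. Of 33 synaptic adhesion genes with a distant intronic base, 8 hosted a peak in any list (2 in GFP control, 3 in GFP CSDS, 4 in each Zbt-KD list, 6 in GFP SSDS and 5 in ZBT-OE SSDS). The median length of these genes was 903 kb, and 26.1% of all genes of 500 to 1000 kb hosted a peak. Nell1 was the one hosting gene of this list in all 6 lists. Cntnap2, a neurexin family member and one of the longest genes, held 6 peaks in Zbt-KD CSDS and 5 in GFP SSDS, which covered 5.42% and 3.02% of it. Astn2, which acts in neuronal migration, was covered by 0 in both control lists of the knockdown experiment and by 19.3% in GFP SSDS, and Ctnna3, an alpha-catenin, by at most 6.13%. Of 18 cadherin genes with a median length of 224 kb, 0 hosted a peak in any list, and 5.18% of all genes of 100 to 250 kb did.

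The lists of receptors, channels and guidance genes had median lengths of 348 to 383 kb, and 10.4% of all genes of 250 to 500 kb hosted a peak in any list. Of 28 glutamate and GABA receptor genes, 2 hosted a peak. Gabrg3, a GABA-A receptor subunit, did so in all 6 lists and was covered by 10.0% in Zbt-KD CSDS and by 26.7% to 31.0% in the others. Of 27 ion channel genes, 7 hosted a peak. The ryanodine receptor Ryr3 was covered by 66.4% to 67.3% in every list, with 1 distant intronic peak in each. The inward rectifier Kcnj3 was not covered in GFP control or GFP CSDS and was covered by 64.3% in GFP SSDS and 43.5% in ZBT-OE SSDS. The sodium leak channel Nalcn was covered by 60.9% or more in all lists. Of 31 genes of axon guidance and matrix, 4 hosted a peak, among them Unc5d and the semaphorin Sema3d, which was covered by 17.3% in GFP SSDS and 14.6% in ZBT-OE SSDS.

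Cell type markers are mostly shorter genes, with list medians of 34.8 to 71.6 kb, and 1.93% of all genes under 50 kb and 3.52% of those of 50 to 100 kb hosted a peak in any list. Of 10 astrocyte marker genes with a distant intronic base, 1 hosted a peak: Gpc5, a glypican, in Zbt-KD control, with 0.780% of its body covered and a fold enrichment of 1.56. Any peak overlapped 1 of the 10 genes in Zbt-KD control and in ZBT-OE SSDS, and 0 in the other 4 lists. Of 9 neuron markers, Map2 hosted 6 peaks in GFP CSDS. Peaks of any kind covered 14.1% of Map2 in that list, 4.49% in Zbt-KD control and 38.2% in both GFP SSDS and ZBT-OE SSDS. Of 7 oligodendrocyte, 6 microglia and 7 endothelial markers, 0 hosted a peak. None of 11 glutamate and ion transporter genes of astrocytes did. Of 10 NF-kB and inflammation genes, Relb, a subunit of NF-kB, hosted a peak in GFP SSDS. Hosting counts the centre of a peak alone: Relb was covered by 100% in both GFP SSDS and ZBT-OE SSDS and by 0 in the other 4 lists. Of 9 genes that the study names for mouse OFC or astrocytes, Fkbp5 hosted a peak in ZBT-OE SSDS. Counts of 0 or 1 in lists of this size are near the share for all genes of like length, so they do not bear on the labelled cell type in either direction.

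Chronic stress was compared in GFP mice first, with presence or absence in a list as the measure. Comparisons share lists (GFP control, GFP CSDS and both Zbt-KD lists each enter 2), so they are not independent. In each comparison, a peak is said to be in one list only with respect to the 2 lists compared. Of the GFP CSDS peaks, 43.8% (39.5 to 48.1) overlapped a GFP control peak by at least 1 bp, against 53.4% of all peaks of that list. Of the GFP control peaks, 79.8% (76.6 to 82.6) overlapped a GFP CSDS peak, against 71.7% of all peaks. The first share lay below the value for all peaks and the second above it, and neither difference could be tested. Many of these peaks lie in the same genes. The 10 genes with the most peaks held 28.3% of the GFP control peaks with a hosting gene and 29.5% of those of GFP CSDS. At one scale the shares were 69.8% and 89.1%, and which step of that setting moved them was not tested. The 284 GFP CSDS peaks without an overlap were narrow, with a median width of 2641.5 bp, and lay in 92 genes, and the 136 of GFP control lay in 42. The lists shared 113 hosting genes, which is 58.2% of those of GFP CSDS and 62.4% of those of GFP control.

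Peaks seen in GFP CSDS only included one of 91576 bp in intron 2 of Fam118b with a fold enrichment of 2.65, the Adcy10 peak of 1499 bp (2.61) and the Abcb1a peak of 1654 bp (2.52). In GFP control only, the strongest pair lay in Sntg1, with 2.36 and 2.06.

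Knockdown under chronic stress was compared next. Of the Zbt-KD CSDS peaks, 75% (68.0 to 80.9) overlapped a GFP CSDS peak, against 78.8% of all peaks, and of the GFP CSDS peaks, 54.5% (50.1 to 58.7) overlapped a Zbt-KD CSDS peak, against 62.1%. The strongest GFP CSDS peaks without an overlap included the LINE-1 peaks in Npsr1 (2.93) and Pde1c (2.85) printed above. These spanned 1240 and 1591 bp, and no distant intronic peak of Zbt-KD CSDS was narrower than 6613 bp. Why they had no counterpart there was not tested. The strongest in Zbt-KD CSDS were in intron 46 of 171 of Snhg14 (2.28), in 4933406I18Rik (2.07) and in Gm5622 (1.89). Of the hosting genes, 85 were shared, 72.6% of those of Zbt-KD CSDS and 43.8% of those of GFP CSDS.

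Without stress, 70.1% (63.1 to 76.2) of the Zbt-KD control peaks overlapped a GFP control peak, against 70.5% of all peaks, and 74.6% (71.1 to 77.7) of the GFP control peaks overlapped a Zbt-KD control peak, against 70.7%. The strongest peaks of Zbt-KD control only lay in Sybu, which links vesicles to kinesin (2.39), in Abcb1a (2.31) and in Gbe1, the glycogen branching enzyme (2.11). Those of GFP control only included peaks in Myo5b (2.38) and Pde1c (2.15). These spanned 4000 and 1440 bp, and no distant intronic peak of Zbt-KD control was narrower than 6597 bp. The lists shared 82 hosting genes, 66.1% of those of Zbt-KD control and 45.3% of those of GFP control. For the peaks of Zbt-KD control, the share found again was that of the whole list.

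Chronic stress within knockdown gave 62.8% (55.4 to 69.7) of the Zbt-KD CSDS peaks overlapping a Zbt-KD control peak, against 73.9% of all peaks, and 74.9% (68.2 to 80.5) in reverse, against 76.5%. Peaks of Zbt-KD CSDS only lay in Snhg14 (2.28), Atp13a4 (2.12) and A830018L16Rik (2.03). Those of Zbt-KD control only lay in Sntg1 (2.73), in Washc4, a subunit of the WASH complex that acts on endosomes (2.55), and in Abcb1a (2.31). In this comparison 72 genes hosted a peak in both lists, which is 61.5% and 58.1% of the hosting genes.

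**Figure D4:**
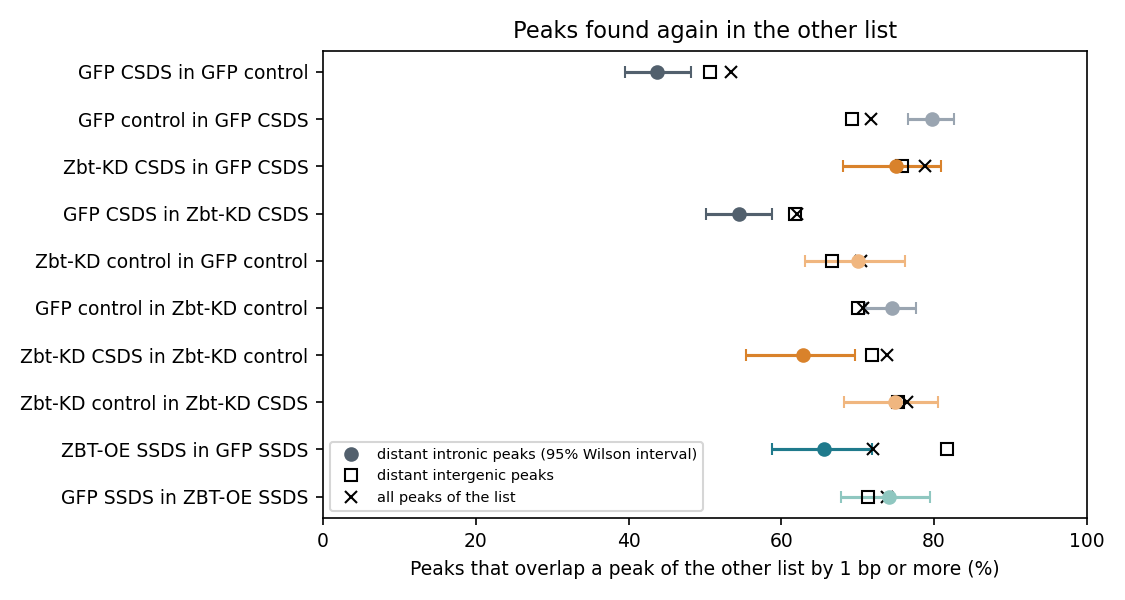
Percent of distant intronic peaks (filled circles, 95% Wilson intervals over peaks), distant intergenic peaks (open squares) and all peaks (crosses) of the list named first that overlap a peak of the list named second by 1 bp or more. GFP CSDS peaks in GFP control are lowest, at 43.8%, and ZBT-OE SSDS peaks in GFP SSDS lie at 65.7%, below the 81.7% of intergenic peaks.

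The lists of ZBT-OE SSDS and GFP SSDS, compared last, differed in both the GC content and the distance to a TSS of their unshared intronic peaks. Of the ZBT-OE SSDS peaks, 65.7% (58.8 to 71.9) overlapped a GFP SSDS peak, against 72.0% of all peaks and 81.7% of the distant intergenic peaks of that list. In reverse the share was 74.1% (67.8 to 79.5), against 73.8% of all peaks. The 68 peaks of ZBT-OE SSDS only had a GC content of 38.1% to 56.1% with a median of 46.1%, whereas the 130 that overlapped a GFP SSDS peak had a median of 40.7% and the 56 of GFP SSDS only a median of 40.3%. Of the 68, 40 were above 45% GC, a limit chosen after the values were seen, and of the 56, 6 were. The 68 peaks lay a median of 17.1 kb from a TSS and the 56 a median of 124 kb. Distance and width entered the selection, so these medians, and the share of peaks that contain a TSS, are a description. Of the 68, 41 lay under 20 kb from a TSS, against 7 of the 56. GC content was not compared among peaks at like distance from a TSS, so it is a description too, and why it differed was not tested. The GC ranges of both sets overlap, since the 56 ran from 34.7% to 49.3%.

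Both sets also differed in their place within genes. Of the 68, 29.4% were in intron 1 and 61.8% contained a TSS (49.9 to 72.4). A TSS was also contained in 55.4% (46.8 to 63.7) of the 130 ZBT-OE SSDS peaks that overlapped a GFP SSDS peak. Of the 56 in GFP SSDS only, 12.5% were in intron 1 and 5.36% contained a TSS (1.84 to 14.6). Their hosting genes had a median length of 59.4 kb and 256 kb. The ZBT-OE SSDS list has no distant intronic peak narrower than 20277 bp, and among the 23 GFP SSDS only peaks at least that wide the median GC content was 39.9%, the median distance 116 kb and the share with a TSS 13.0% (4.54 to 32.1). With a distance limit of 20 kb in place of 10 kb, 80.0% of the ZBT-OE SSDS peaks were found in GFP SSDS in place of 65.7%.

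**Figure D5:**
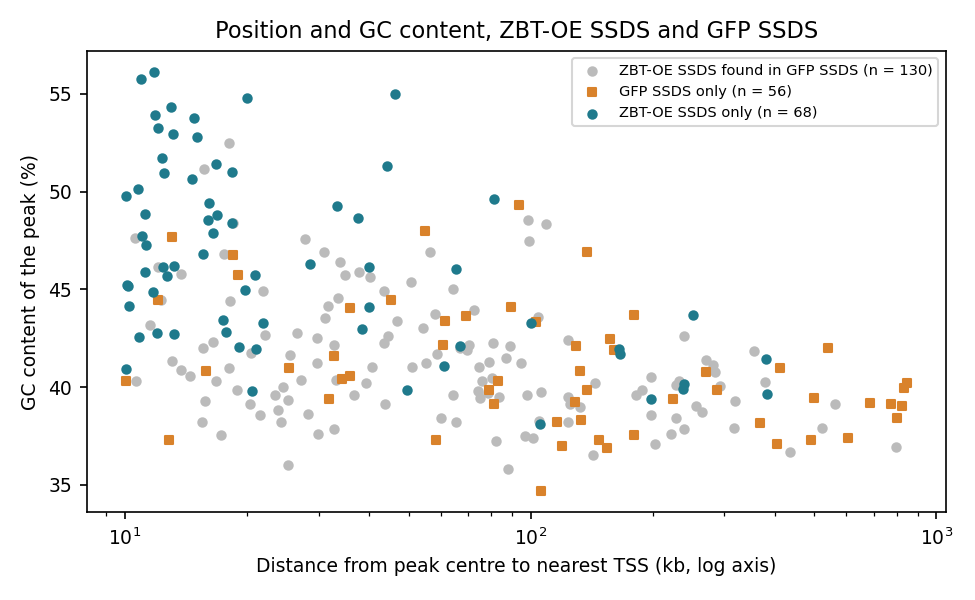
GC content in percent against the distance between peak centre and listed TSS in kb (log axis) for 68 peaks of ZBT-OE SSDS only (dark circles), 56 of GFP SSDS only (squares) and 130 of ZBT-OE SSDS that overlap GFP SSDS (grey circles). Peaks of ZBT-OE SSDS only crowd at 10 to 20 kb, and 40 of them are above 45% GC.

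The strongest of the 68 peaks lay at the end of Kcnab1, a beta subunit of voltage-gated potassium channels, with a fold enrichment of 3.27. It contained a TSS, and its listed nearest gene was Ssr3. The next lay in intron 1 of Fkbp5, at chr17:28450515-28486339, with 2.94. It spanned 35825 bp, contained the Fkbp5 TSS and covered 40.8% of the gene, which was not covered in any other list. A peak in Nudt9, an ADP-ribose hydrolase, had 2.83. Smo, the transducer of Hedgehog signals, held a peak in intron 1 with 2.80 and a GC content of 47.9%. Further peaks of this set, named after their values were seen, lay in intron 1 of the growth factor receptor Fgfr1 (1.63) and of the transcription factor Prdm16 (1.36), the latter with a GC content of 51.4%. Both values lay below the median of the 68, which was 1.70. The peaks in Nudt9, Smo, Fgfr1 and Prdm16 also contained a TSS. Peaks of GFP SSDS only were led by Abcb1a (3.15), Npsr1 (3.02) and Sntg1 (2.94).

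The lists shared 106 hosting genes, 57.6% of those of ZBT-OE SSDS and 62.0% of those of GFP SSDS.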

How the data were processed

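Peaks were taken from ATAC-seq of mouse OFC astrocytes, 32 samples in 6 groups by their labels. According to the methods, HISAT2 was used by the authors for alignment (mm10), only unique alignments without duplicates were used, and MACS called the peaks; how samples of a group were combined is not given in the sources used here. Fold enrichment was deposited as the authors' ratio of peak signal to background. Deposited q-values are linear and reached at most 0.000234. Depth per sample is unknown. Starts were read as counted from 1.

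The members and gene lists were chosen with earlier results of these data known. Members were selected on the deposited annotation, distance and width. Introns, TSSs, GC content and sequences came from RefSeq and the GRCm38.p6 reference. Of 1950 peaks, 1925 had a hosting gene there, and for 1897 the number of introns was the listed one. An overlap of 1 bp or more made a peak shared between lists. Named were the 8 loci in most lists (ties by lowest fold enrichment), per comparison the 3 strongest unshared peaks of each list, the 8 genes with most peaks and listed genes hosting in 3 or more lists; others were named after their values were seen. The results for some items under this rule are not reported here. The exact sign-flip permutation test used 6 lists and 4 measures. Alternatives were the upper 50% by fold enrichment, a distance above 20 kb, a width below 100 kb, an overlap of 50% and one scale. Tools were scipy 1.17.1, pandas 2.3.3, numpy 2.4.6, Python 3.11.15 and matplotlib 3.10.9, and 7 of 7 quantities were recovered on simulated data with 1000 peaks.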

Additional observations from a re-analysis of the deposited data

How the results depend on the processing

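Of 100 alternative values over 25 results, 62 kept their side and lay within the counting interval, 30 moved and 8 reversed. The cause was not tested. At one scale, the number ratios were 1.15 (GFP CSDS to GFP control), 0.943 (Zbt-KD CSDS to GFP CSDS), 1.01 (Zbt-KD control to GFP control), 1.08 (Zbt-KD CSDS to Zbt-KD control) and 1.42 (ZBT-OE SSDS to GFP SSDS), and the shares found again, treated list first, were 69.8% and 89.1%, then 85.0% and 81.1%, then 91.3% for GFP control in Zbt-KD control, then 78.0% and 83.9%, then 85.0% for GFP SSDS in ZBT-OE SSDS. In the upper 50% by fold enrichment, the shares were 54.0% (GFP CSDS in GFP control), 89.3% (Zbt-KD CSDS in GFP CSDS), 85.4% (Zbt-KD control in GFP control), 67.8% (the reverse), 80.0% (Zbt-KD CSDS in Zbt-KD control) and 76.9% (ZBT-OE SSDS in GFP SSDS). With a width below 100 kb, the ratios were 0.263 (Zbt-KD CSDS to GFP CSDS) and 0.210 (Zbt-KD control to GFP control), and the shares, in the order of the comparisons, 38.0%, then 67.2% and 49.7%, then 58.3%, then 50.4% and 66.7%, then 47.6% and 61.5%. With a distance above 20 kb, ZBT-OE SSDS in GFP SSDS was 80.0%. The width difference from intergenic peaks was -0.13 in the upper 50%, -0.0387 above 20 kb and -0.0310 below 100 kb on the log2 scale, and the fold enrichment difference 0.00548 above 20 kb, none past the threshold. An overlap of 50% moved none of the 10 shares. No paired analysis was possible because each list pools the samples of its group, and for the same reason no replicate could be left out and the one scale gave no value for the tests. Without replicates or depth, an absent peak cannot be told from one below the caller's limit.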
